A study of Mus musculus with 12 samples.

Results

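The mitotic spindle and kinetochore genes followed here are 53 genes of the machinery of cell division, taken by gene symbol from a table of 47643 genes. Each symbol matched 1 row. They were measured by bulk poly(A) RNA sequencing of pancreatic tumor pieces formed in mice by KPC4662, an established mouse pancreatic cancer cell line that the labels call epithelial. There were 6 libraries of the Young tumor group and 6 of the Old tumor group, which differ by the age group of the mouse. The labels used here give no ages, strain, sex, route of implantation or further treatment, and do not say whether each piece came from a different mouse, so p-values measure the spread between these pieces. All tumors share 1 cell line. Library totals were 17754645 to 24097599 counts, all 53 genes passed the filter on low counts, and the smallest count of any of them in any library was 36 (Cdkn3).

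Mitosis divides the copied chromosomes between daughter cells. Cyclin-dependent kinase 1 with its A and B cyclins, joined by the Polo, Aurora and NIMA-related kinases, drives entry. Kinetochores attach each chromosome to spindle microtubules, a checkpoint holds the cell until all are attached, and the anaphase-promoting complex, a ubiquitin ligase, then marks securin and the cyclins for destruction so that the chromosomes part and the cell is cleaved. In tumors the transcripts of these genes are widely read as a measure of dividing cells, since most of them are made only late in the cell cycle.

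Every one of the 53 genes had a fitted fold change below 0 in old tumors, as did 45.8% of all genes tested. By edgeR's quasi-likelihood test 17 of the 53 (32.1%) fell at an adjusted p under 0.05, where 1.47% of the 16013 tested genes were called lower and 2.26% in either direction. The 17 are the ubiquitin-conjugating enzymes Ube2c and Ube2s, the kinases Aurka, Nek2 and Cdk1, the cyclins Ccna2 and Ccnb2, Cks1b, Cdkn3, Cdc20, Pttg1, Birc5, Cdca8, Cenpa, Kif20a, Tacc3 and Fam64a. The changes were modest: the median log2 fold change was -0.47 over the 53 genes, with extremes of -0.92 for Cdkn3 and -0.15 for Incenp, beside a median of 0.03 over all genes tested. None of the 53 was called higher by edgeR or by DESeq2 (0.793% of all genes were called higher by edgeR), and none reached an unadjusted p under 0.05 in that direction. In 14 of the 53 all 6 old libraries lay below all 6 young ones in CPM (counts scaled to library size, here with TMM factors), as for 1.97% of all genes. In a bulk sample, fewer dividing cells and less of these transcripts per cell cannot be told apart.

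The number of calls rested on single libraries while the size of the change did not. Calls over all tested genes, 362 in the reported fit, also moved and are given in parentheses. Without Old tumor 3 no member was called (2 of all genes), although 50 had an unadjusted p under 0.05. Without Young tumor 1 the count was 1 (9) and without Old tumor 5 it was 2 (27). It was 3 without Old tumor 2 or Old tumor 4 (12 and 41). Leaving out Young tumor 2, Young tumor 4 or Old tumor 6 left 4 (85, 52 and 41). Leaving out Young tumor 6 left 6 (120), Young tumor 5 left 8 (52) and Young tumor 3 left 15 (471). Without Old tumor 1 the count rose to 26 (1106, with 4.17% of all genes lower). Over these 12 fits the median log2 fold change of the 53 genes stayed between -0.54 and -0.38, the latter without Old tumor 2, and all 53 fold changes stayed below 0. On deposited TPM (abundance per length, scaled to a fixed sum) 8 were called lower, as were 0.3% of all genes. The median there was -0.31 where that of all genes was 0.13, and Foxm1, Bub3 and Cenpf had fold changes above 0. The count was 0 with an acinar marker score as a covariate (median -0.44, 37 at an unadjusted p under 0.05), a score that rests on 3 tested genes. Over all genes that fit called 1.

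**Figure D1:**
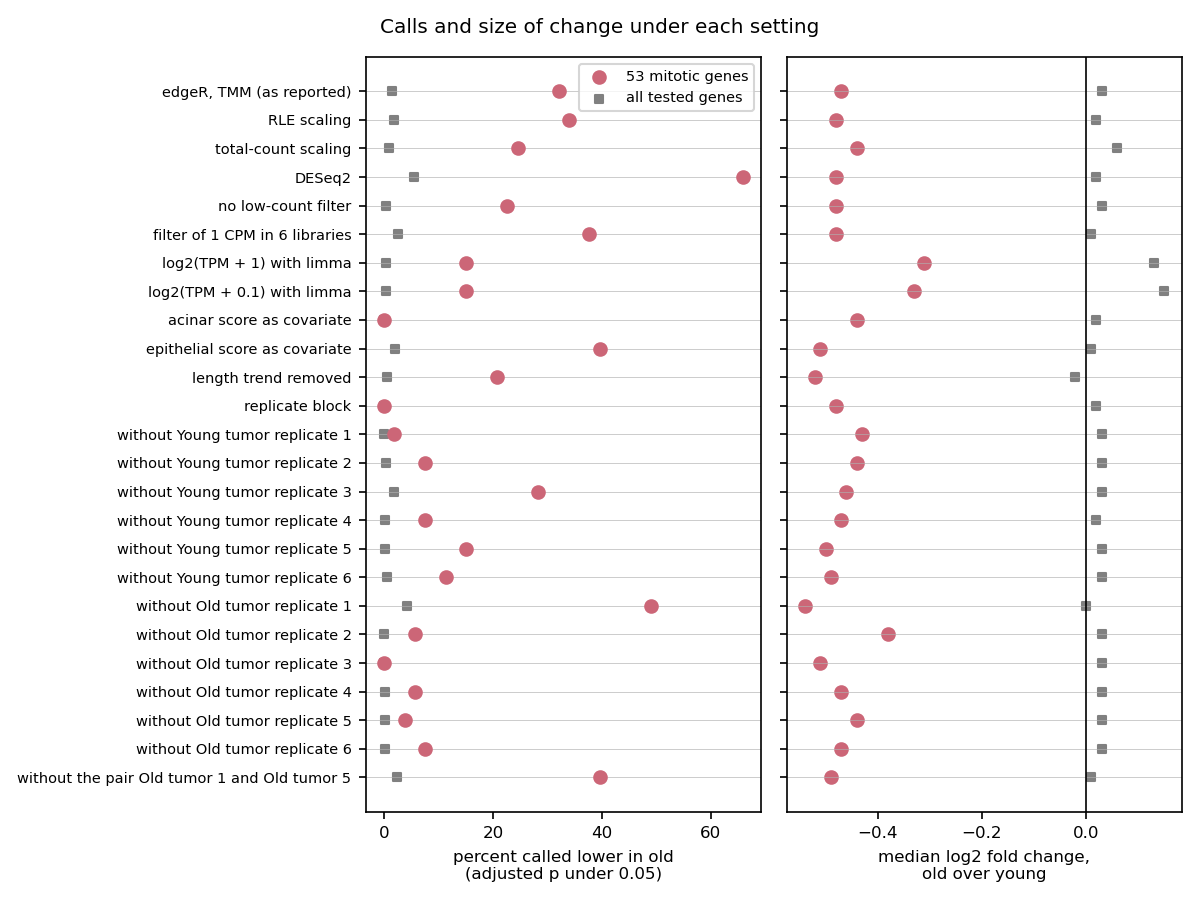
Percent of genes called lower in old tumors (left) and median log2 fold change, old over young (right), under the reported fit and each of 24 alternatives, for the 53 mitotic genes (circles) and all genes tested (squares). The circles on the right stay between -0.54 and -0.31, while those on the left run from 0 to 66.0%.

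Summed over the 53 genes, young libraries held 1933 to 2565 CPM (median 2225) and old libraries 1233 to 1878 CPM (median 1704). The groups do not overlap in this CPM sum, though Young tumor 5 (1933) and Old tumor 3 (1878) lie close. Summed in TPM they do overlap, at 1563 to 2204 in young and 1197 to 1629 in old libraries. Old tumor 2 stood lowest at 1233 CPM, with Old tumor 5 next at 1571 CPM. Old tumor 2 held the lowest value of the 12 libraries for 43 of the 53 genes. Its median deviation from the young mean was -0.92 on the log2 scale, against -0.26 to -0.48 in the other 5 old libraries. At the upper end Young tumor 2 and Young tumor 1, at 2565 and 2513 CPM, held the highest value for 28 and 16 genes. Young tumor 5 and Young tumor 6 lay below the young median for 47 and 50 of the 53 genes. In Old tumor 2, Old tumor 5 and Old tumor 6 all 53 genes were below the young median.

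**Figure D2:**
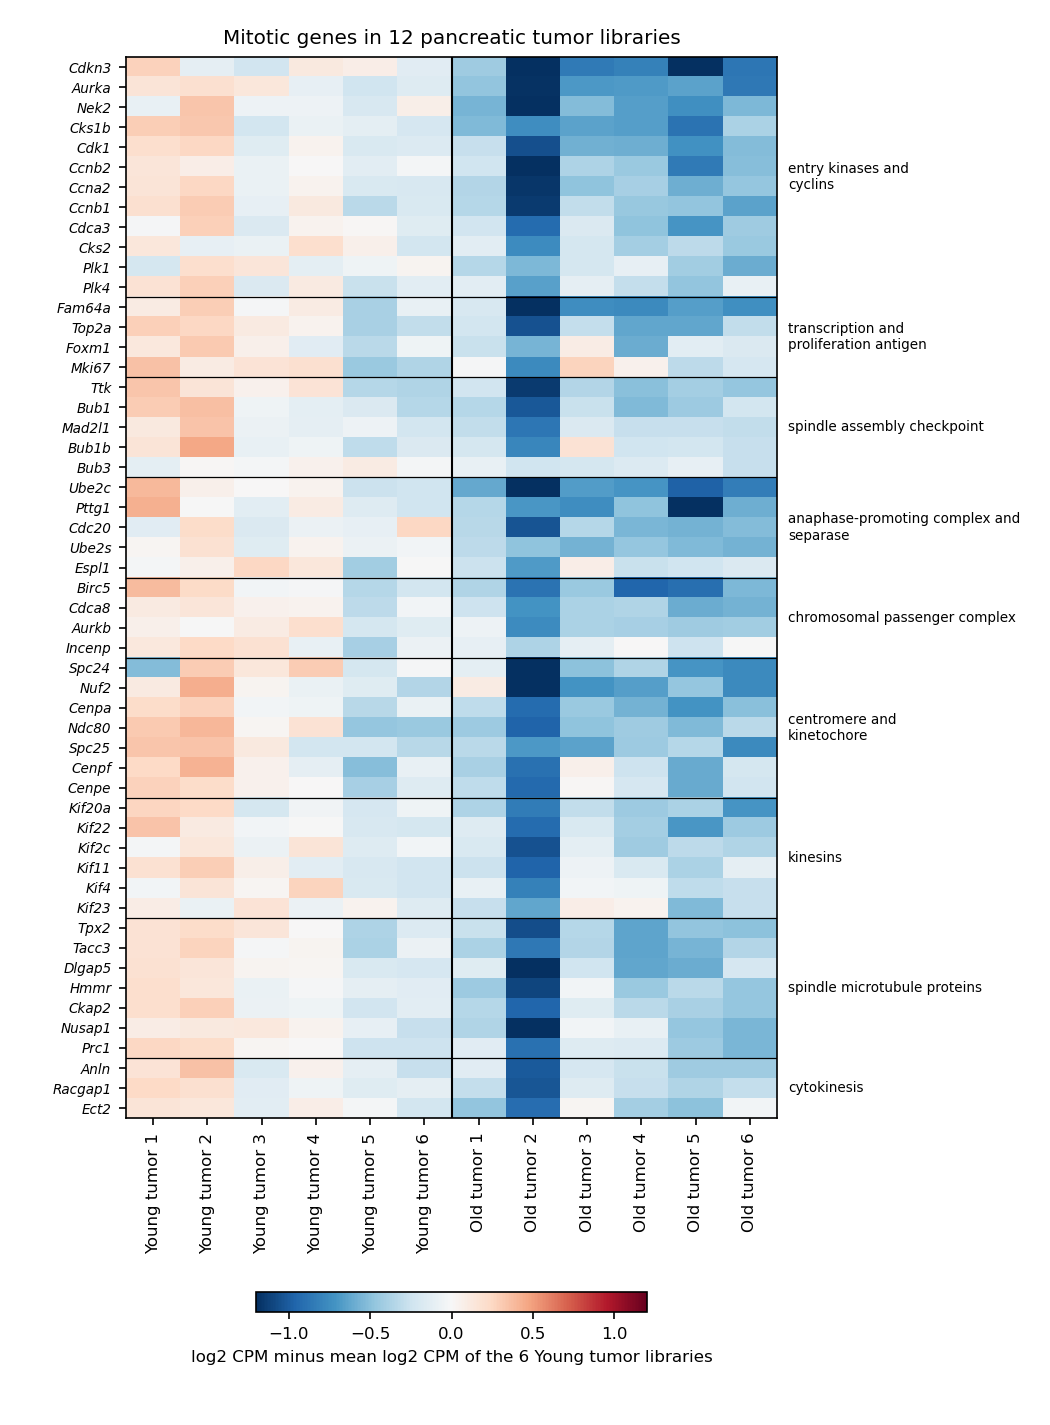
Each of the 53 mitotic genes (rows, by role) in each of 12 libraries (columns), as log2 CPM minus the mean log2 CPM of the 6 young libraries. Old tumor 2 is the darkest column, with a median deviation of -0.92, and Old tumor 3 the palest of the old columns at -0.26.

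Promoters of many of these genes carry a pair of short motifs, described here before the single genes. Whether the motifs bear on the changes with age was not tested. Mitotic promoters are known for the CCAAT box, which the factor NF-Y binds, and for the cell cycle genes homology region (CHR), which the MuvB complexes bind to repress or activate late cell cycle genes. RefSeq promoter windows of GRCm38.p6, the assembly of mm10, run from 250 bases before to 50 bases after the gene start. They were matched by symbol or synonym for 44 of the 53 genes. Not matched were Ccna2, Foxm1, Fam64a, Aurkb, Incenp, Spc24, Kif20a, Tpx2 and Dlgap5. CCAAT was searched on both strands (as CCAAT or ATTGG) and the CHR as TTTGAA or TTCGAA on both strands (TTCAAA is the first of these reversed, and the second reads the same on either strand). A CHR was found in 33 of the 44 windows (75.0%), against 17.0% of 11551 tested genes with a window. It began within 40 bases of the gene start in 26 (59.1%), against 3.82%. At least 1 CCAAT was found in 33 (75.0%, against 42.5%), at least 2 in 24 (54.5%, against 16.0%), and a CCAAT and a CHR together in 29 (65.9%, against 6.97%). Neither motif was found in the windows of Plk4, Mad2l1, Pttg1, Birc5, Nuf2, Nusap1 and Tacc3, of which Pttg1, Birc5 and Tacc3 were called lower. A match of letters is a description of the window and not a measured binding site.

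The 4 members with the smallest p, and Mki67 as a member that barely moved, are printed 5′ to 3′ on the strand of the gene, with CCAAT or ATTGG and the CHR letters in capitals:
Ube2s: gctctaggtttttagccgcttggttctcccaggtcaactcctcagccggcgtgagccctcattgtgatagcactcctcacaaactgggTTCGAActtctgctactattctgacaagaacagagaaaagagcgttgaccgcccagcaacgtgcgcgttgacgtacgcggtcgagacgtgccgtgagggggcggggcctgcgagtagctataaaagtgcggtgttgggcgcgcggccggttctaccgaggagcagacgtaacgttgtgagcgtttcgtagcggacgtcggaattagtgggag
Aurka: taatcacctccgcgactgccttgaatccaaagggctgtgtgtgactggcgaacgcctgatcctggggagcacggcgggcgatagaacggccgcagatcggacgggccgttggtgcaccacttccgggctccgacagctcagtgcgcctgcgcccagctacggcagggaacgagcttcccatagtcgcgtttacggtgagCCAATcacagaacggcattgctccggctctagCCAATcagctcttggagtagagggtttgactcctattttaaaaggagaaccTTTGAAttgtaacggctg
Ube2c: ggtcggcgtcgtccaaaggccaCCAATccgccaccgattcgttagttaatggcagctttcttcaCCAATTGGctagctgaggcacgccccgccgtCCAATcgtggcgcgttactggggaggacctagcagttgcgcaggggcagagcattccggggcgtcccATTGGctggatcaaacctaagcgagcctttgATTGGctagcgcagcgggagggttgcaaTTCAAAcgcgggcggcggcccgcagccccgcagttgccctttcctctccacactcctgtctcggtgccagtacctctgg
Cks1b: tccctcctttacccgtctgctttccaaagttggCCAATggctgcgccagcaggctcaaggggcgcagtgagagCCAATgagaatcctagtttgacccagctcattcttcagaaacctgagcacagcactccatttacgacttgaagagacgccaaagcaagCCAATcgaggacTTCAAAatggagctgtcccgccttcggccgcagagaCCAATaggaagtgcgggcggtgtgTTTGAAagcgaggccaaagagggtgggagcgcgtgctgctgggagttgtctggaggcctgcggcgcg
Mki67: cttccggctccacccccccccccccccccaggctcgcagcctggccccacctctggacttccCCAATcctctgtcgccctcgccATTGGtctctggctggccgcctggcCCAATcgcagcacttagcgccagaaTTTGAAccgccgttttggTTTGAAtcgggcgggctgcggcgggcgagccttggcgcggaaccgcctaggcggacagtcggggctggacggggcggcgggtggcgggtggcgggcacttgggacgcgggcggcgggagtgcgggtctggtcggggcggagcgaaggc
The windows lie at chr7:4812291-4812590 (minus strand) for Ube2s, chr2:172370521-172370820 (minus) for Aurka, chr2:164769679-164769978 (plus) for Ube2c, chr3:89418242-89418541 (minus) for Cks1b and chr7:135716330-135716629 (minus) for Mki67. Counted from the gene start as 1, with no base 0, the CHR of Aurka began at 33 and its CCAAT boxes at -51 and -19. Ube2c had a CHR at -29 and 6 CCAAT matches, 2 of which overlap in a stretch that reads CCAAT on both strands. Cks1b had a CHR at -77 and at -17 with 4 CCAAT boxes. Ube2s, which had the smallest p of the 53, held no CCAAT and a CHR only at -162, far from its start. Mki67 held 3 CCAAT matches and a CHR at -116 and at -98. The median log2 fold change was -0.45 in the 33 genes with a CHR (-0.92 to -0.16) and -0.52 in the 11 without (-0.72 to -0.29). With a CHR within 40 bases of the start it was -0.47 (26 genes), and without one there -0.42 (18 genes). Neither difference was tested.

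**Figure D3:**
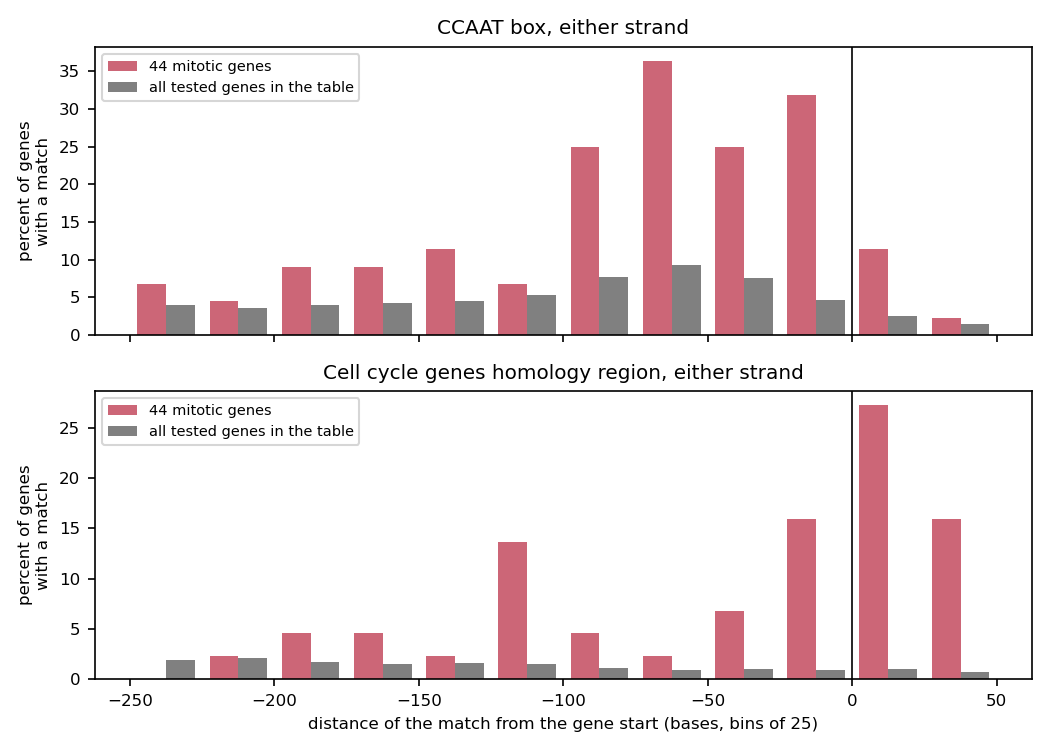
Share of genes with a CCAAT match (top) or a CHR match (bottom) beginning in each bin of 25 bases around the gene start, in 44 mitotic genes and in the tested genes that have a promoter window (first window of each gene). The CHR is most frequent in the bin that starts at the gene start, 27.3% of mitotic genes against 1%, and the CCAAT box in the bin from 75 to 51 bases before it, 36.4% against 9.25%.

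Among the kinases and cyclins of mitotic entry 7 of 12 fell and all 12 reached an unadjusted p under 0.05 (10.4% of all genes did so as lower). Aurka (ENSMUSG00000027496, chr2:172356190-172370535, mm10), the Aurora kinase of centrosomes and spindle poles, was at 24.7 to 33.2 CPM in young libraries (median 29.6) and 12.8 to 20.9 CPM in old libraries (median 18.1) (log2 fold change -0.75 with SE 0.12, edgeR adjusted p = 0.024). Old tumor 1, the highest old library, stayed below the lowest young one, Young tumor 5. Cdk1 (chr10:69335146-69352938), the kinase whose activity defines mitosis, was at 45.2 to 61.2 CPM in young libraries (median 49.8) and 24.8 to 42.3 CPM in old libraries (median 34.4) (log2 fold change -0.62 with SE 0.12, edgeR adjusted p = 0.033), again without overlap. Cks1b (chr3:89415472-89418383), a small docking subunit of cyclin-dependent kinases, was at 80.5 to 117 CPM in young libraries (median 87.6) and 50.7 to 72.0 CPM in old libraries (median 59.8) (log2 fold change -0.65 with SE 0.12, edgeR adjusted p = 0.03). Here Old tumor 5 was lowest and Old tumor 6 came nearest to the young group. Ccna2 and Ccnb2, cyclins that activate Cdk1, were at 67.0 to 90.8 CPM in young libraries (median 75.5) and 34.0 to 59.9 CPM in old libraries (median 55.0) for Ccna2 (log2 fold change -0.56 with SE 0.13, edgeR adjusted p = 0.042), and at 28.7 to 34.5 CPM in young libraries (median 31.0) and 13.6 to 26.4 CPM in old libraries (median 22.5) for Ccnb2 (log2 fold change -0.57 with SE 0.14, edgeR adjusted p = 0.048). Both groups were separate for each cyclin, with Old tumor 2 at the bottom.

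Nek2, a centrosomal kinase that helps to split the centrosomes, was at 15.4 to 22.1 CPM in young libraries (median 16.8) and 6.60 to 12.2 CPM in old libraries (median 11.5) (log2 fold change -0.72 with SE 0.15, edgeR adjusted p = 0.034). Old tumor 2 was far below the other old libraries there. Cdkn3, whose product removes a phosphate from Cdk1 and Cdk2, had the largest fold of all 53 at 1.89-fold lower, 3.84 to 5.47 CPM in young libraries (median 4.48) and 1.55 to 3.37 CPM in old libraries (median 2.49) (log2 fold change -0.92 with SE 0.19, edgeR adjusted p = 0.035). The groups did not overlap. Ccnb1, the main partner of Cdk1, differed by -0.55 (SE 0.14, edgeR adjusted p = 0.057) and did not pass, with 5 of 6 old libraries below the lowest young one. The other members that did not pass were Cdca3, an adaptor in the turnover of the Cdk1 inhibitor Wee1 (-0.47), Cks2 (-0.37), Plk1, the Polo-like kinase of mitosis (-0.36), and Plk4, the kinase that starts centriole copying. Plk4 had the smallest change of the 12, with 20.0 to 29.3 CPM in young libraries (median 24.1) and 15.3 to 22.6 CPM in old libraries (median 20.9) (log2 fold change -0.29 with SE 0.12, edgeR adjusted p = 0.2).

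Of the 5 anaphase genes 4 were called, and in all 4 the ages did not overlap in CPM. Ube2c (ENSMUSG00000001403), the E2 enzyme that starts ubiquitin chains on targets of the anaphase-promoting complex, was at 61.0 to 95.5 CPM in young libraries (median 74.3) and 27.3 to 47.8 CPM in old libraries (median 42.9) (log2 fold change -0.86 with SE 0.14, edgeR adjusted p = 0.024), which is 1.81-fold lower. Ube2s (ENSMUSG00000060860, chr7:4794546-4812590), the E2 enzyme that lengthens those chains, fell less but with the smallest SE of the 17, at 115 to 144 CPM in young libraries (median 127) and 85.4 to 102 CPM in old libraries (median 89.3) (log2 fold change -0.49 with SE 0.0691, edgeR adjusted p = 0.014). Its call held in 11 of the 12 fits that left out a library and in 8 of the 12 other alternatives. On deposited TPM it was not called, and its groups overlapped there (Old tumor 2 at 189 TPM, Young tumor 3 at 174 TPM). Cdc20, the activator that brings targets to the complex, was at 24 to 32.1 CPM in young libraries (median 25.5) and 13.2 to 21.4 CPM in old libraries (median 18.7) (log2 fold change -0.55 with SE 0.12, edgeR adjusted p = 0.04). Pttg1, which codes for securin, the guard of separase, was at 21.8 to 34.6 CPM in young libraries (median 24.6) and 11.2 to 20.3 CPM in old libraries (median 16.5) (log2 fold change -0.67 with SE 0.14, edgeR adjusted p = 0.036), with Old tumor 5 lowest. Espl1, separase itself, did not pass: 13.1 to 20.7 CPM in young libraries (median 17.8) and 10.9 to 18.5 CPM in old libraries (median 14.7) (log2 fold change -0.26 with SE 0.13, edgeR adjusted p = 0.29), with only 1 old library below the lowest young one. The constant subunits of the same ligase are described with the related genes.

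**Figure D4:**
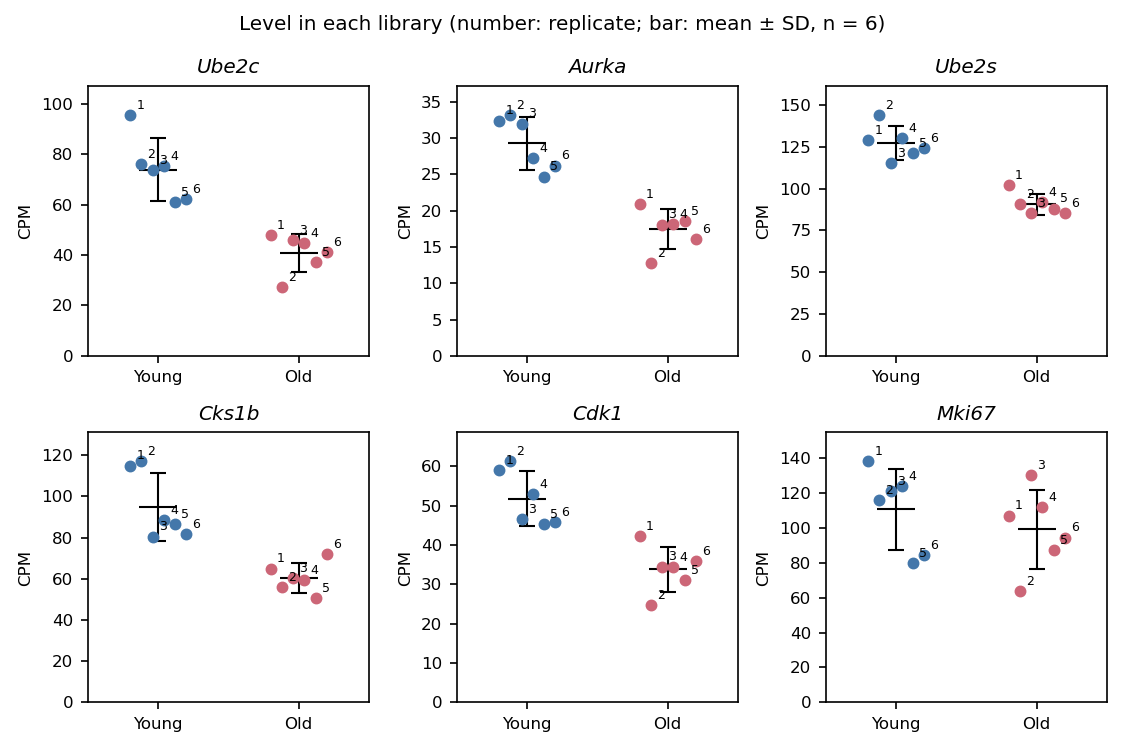
CPM in each library (points, labelled by replicate) with the group mean ± SD (n = 6), for the 5 members with the smallest p and Mki67. In the first 5 genes every old library lies below every young one, while the Mki67 groups overlap (63.8 to 130.1 CPM in old and 79.7 to 138 in young).

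Mki67, whose product Ki-67 coats mitotic chromosomes and is the routine marker of proliferation in pathology, was at 79.7 to 138 CPM in young libraries (median 119) and 63.8 to 130.1 CPM in old libraries (median 101) (log2 fold change -0.16 with SE 0.17, edgeR adjusted p = 0.63). The groups overlapped, and Old tumor 3 was above 5 of the 6 young libraries. The log2 ratio of Ube2c to Mki67 within a library ran from -0.72 to -0.39 in young and from -1.50 to -1.17 in old tumors. This pair was picked for its difference, so the ratio is given without a test. Fam64a, a mitotic regulator of chromatin, fell, with 12.5 to 20.1 CPM in young libraries (median 17.0) and 6.85 to 14.4 CPM in old libraries (median 9.81) (log2 fold change -0.71 with SE 0.16, edgeR adjusted p = 0.043), Old tumor 1 overlapping the young range. Top2a, the topoisomerase that untangles sister chromatids, differed by -0.51 (SE 0.15) and did not pass. Foxm1, the transcription factor that drives late cell cycle genes, differed by -0.27 (SE 0.13, edgeR adjusted p = 0.25), and its level per length was 17.5 ± 2.7 TPM for young and 18.7 ± 4.0 TPM for old libraries (mean ± SD, n = 6).

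In the chromosomal passenger complex, which corrects faulty attachments and directs cleavage, 2 of 4 subunits fell. Birc5, which codes for survivin, was at 26.8 to 44.4 CPM in young libraries (median 33.5) and 17.6 to 26.5 CPM in old libraries (median 20.9) (log2 fold change -0.68 with SE 0.14, edgeR adjusted p = 0.035), without overlap. Cdca8, borealin, was at 15.8 to 21.8 CPM in young libraries (median 20.3) and 12 to 16.6 CPM in old libraries (median 14.2) (log2 fold change -0.48 with SE 0.11, edgeR adjusted p = 0.041), with 5 of 6 old libraries below all young ones. Aurkb, the kinase of the complex, differed by -0.40 (SE 0.11) and did not pass. Incenp, the scaffold that holds the others, had the smallest change of all 53 at 44.2 to 69.0 CPM in young libraries (median 59.6) and 45.1 to 58.4 CPM in old libraries (median 54.1) (log2 fold change -0.15 with SE 0.11, edgeR adjusted p = 0.44), with no old library below the lowest young one. The log2 ratio of Birc5 to Incenp was -0.78 ± 0.17 for young and -1.32 ± 0.25 for old libraries (± SD over 6 libraries; this pair too was picked for its difference, and no test was made).

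Of the 5 checkpoint genes none passed by edgeR, and 4 of 5 had an unadjusted p under 0.05. DESeq2 called Bub1, Bub3, Mad2l1 and Ttk lower, as it did 5.41% of all genes. Ttk, the Mps1 kinase at the head of the checkpoint, had the largest change with 8.65 to 14 CPM in young libraries (median 11.9) and 5.03 to 9.49 CPM in old libraries (median 8.22) (log2 fold change -0.51 with SE 0.17, edgeR adjusted p = 0.11). Bub1 and Mad2l1, a checkpoint kinase and the inhibitor that binds Cdc20, were at -0.47 (SE 0.15) and -0.36 (SE 0.12). Bub1b, the BubR1 pseudokinase, was at -0.26 (SE 0.15). Bub3, an adaptor that is also made outside mitosis, had the narrowest spread at 84.6 to 98.5 CPM in young libraries (median 91.5) and 75.8 to 86.6 CPM in old libraries (median 80.6) (log2 fold change -0.18 with SE 0.0591, edgeR adjusted p = 0.11). All 5 genes had young and old values that overlapped.

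The centromere and kinetochore genes differed by -0.61 to -0.36, all 7 with an unadjusted p under 0.05, and Cenpa was called. Cenpa, the histone H3 variant that marks centromeres, was at 41.2 to 63.0 CPM in young libraries (median 50.5) and 27.4 to 42.2 CPM in old libraries (median 35.9) (log2 fold change -0.58 with SE 0.12, edgeR adjusted p = 0.034), with Old tumor 1 inside the young range. The 4 subunits of the NDC80 complex, the coupler of kinetochores to microtubules, lay close together: Spc24 at -0.61, Nuf2 at -0.59, Ndc80 at -0.55 and Spc25 at -0.55. None of the 4 passed. Spc24, with the largest change of the 7, was at 3.41 to 6.02 CPM in young libraries (median 5.10) and 1.90 to 4.50 CPM in old libraries (median 3.23) (log2 fold change -0.61 with SE 0.21, edgeR adjusted p = 0.13). Cenpe, a kinetochore motor, had the smallest change, with 28.7 to 45.6 CPM in young libraries (median 38.6) and 19.8 to 38.1 CPM in old libraries (median 31.4) (log2 fold change -0.36 with SE 0.15, edgeR adjusted p = 0.19), and the coat protein gene Cenpf was at -0.38 (SE 0.17).

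Of the 6 kinesins Kif20a fell, the motor that carries the passenger complex to the midzone, with 35.2 to 48.7 CPM in young libraries (median 39.4) and 22.7 to 33.1 CPM in old libraries (median 30.6) (log2 fold change -0.51 with SE 0.12, edgeR adjusted p = 0.043) and no overlap. The others did not pass: Kif22, which pushes chromosome arms (-0.45), Kif2c, which takes microtubules apart at centromeres (-0.38), Kif11, which separates the spindle poles (-0.31), Kif4, a chromosome-bound motor (-0.25), and Kif23. Kif23, the motor of centralspindlin, had the smallest change, with 67.2 to 83.9 CPM in young libraries (median 74) and 48.5 to 78.8 CPM in old libraries (median 61.6) (log2 fold change -0.24 with SE 0.12, edgeR adjusted p = 0.25).

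The 7 spindle microtubule proteins lay in a narrow band from -0.54 to -0.38, and Tacc3 was called. Tacc3, which crosslinks kinetochore fibres, was at 44.2 to 69.1 CPM in young libraries (median 57.9) and 31.7 to 45.2 CPM in old libraries (median 41.6) (log2 fold change -0.52 with SE 0.11, edgeR adjusted p = 0.037), with 3 old libraries below the lowest young one. Tpx2, the activator of Aurora A, had the largest change of the 7 but missed the threshold, at 44.1 to 66.2 CPM in young libraries (median 60.0) and 27.2 to 47.3 CPM in old libraries (median 40.7) (log2 fold change -0.54 with SE 0.13, edgeR adjusted p = 0.051). Prc1, the bundler of the midzone, had the smallest, at 41.3 to 58.6 CPM in young libraries (median 49.6) and 26.5 to 44.9 CPM in old libraries (median 40.2) (log2 fold change -0.38 with SE 0.14, edgeR adjusted p = 0.14). Between them were Dlgap5 (-0.47), Hmmr (-0.44), Ckap2 (-0.43) and Nusap1 (-0.41), all proteins of spindle assembly. The 3 cytokinesis genes were at -0.40 for Anln, the actin scaffold anillin, -0.38 for Racgap1, and -0.36 for Ect2, which activates RhoA at the cleavage site. Anln was at 47.3 to 72.9 CPM in young libraries (median 56.3) and 28.5 to 52.1 CPM in old libraries (median 45.1). Ect2 was at 49.8 to 64.5 CPM in young libraries (median 59.1) and 30.7 to 58.9 CPM in old libraries (median 42.7). Anln and Ect2 each had an SE of 0.14 (edgeR adjusted p = 0.13 and 0.16), and their groups overlapped. None of the 3 passed by edgeR. Racgap1 was at 49.2 to 64.5 CPM in young libraries (median 51.8) and 26.7 to 48.9 CPM in old libraries (median 44.7) (log2 fold change -0.38 with SE 0.13, edgeR adjusted p = 0.11), and its groups did not overlap although it was not called.

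**Figure D5:**
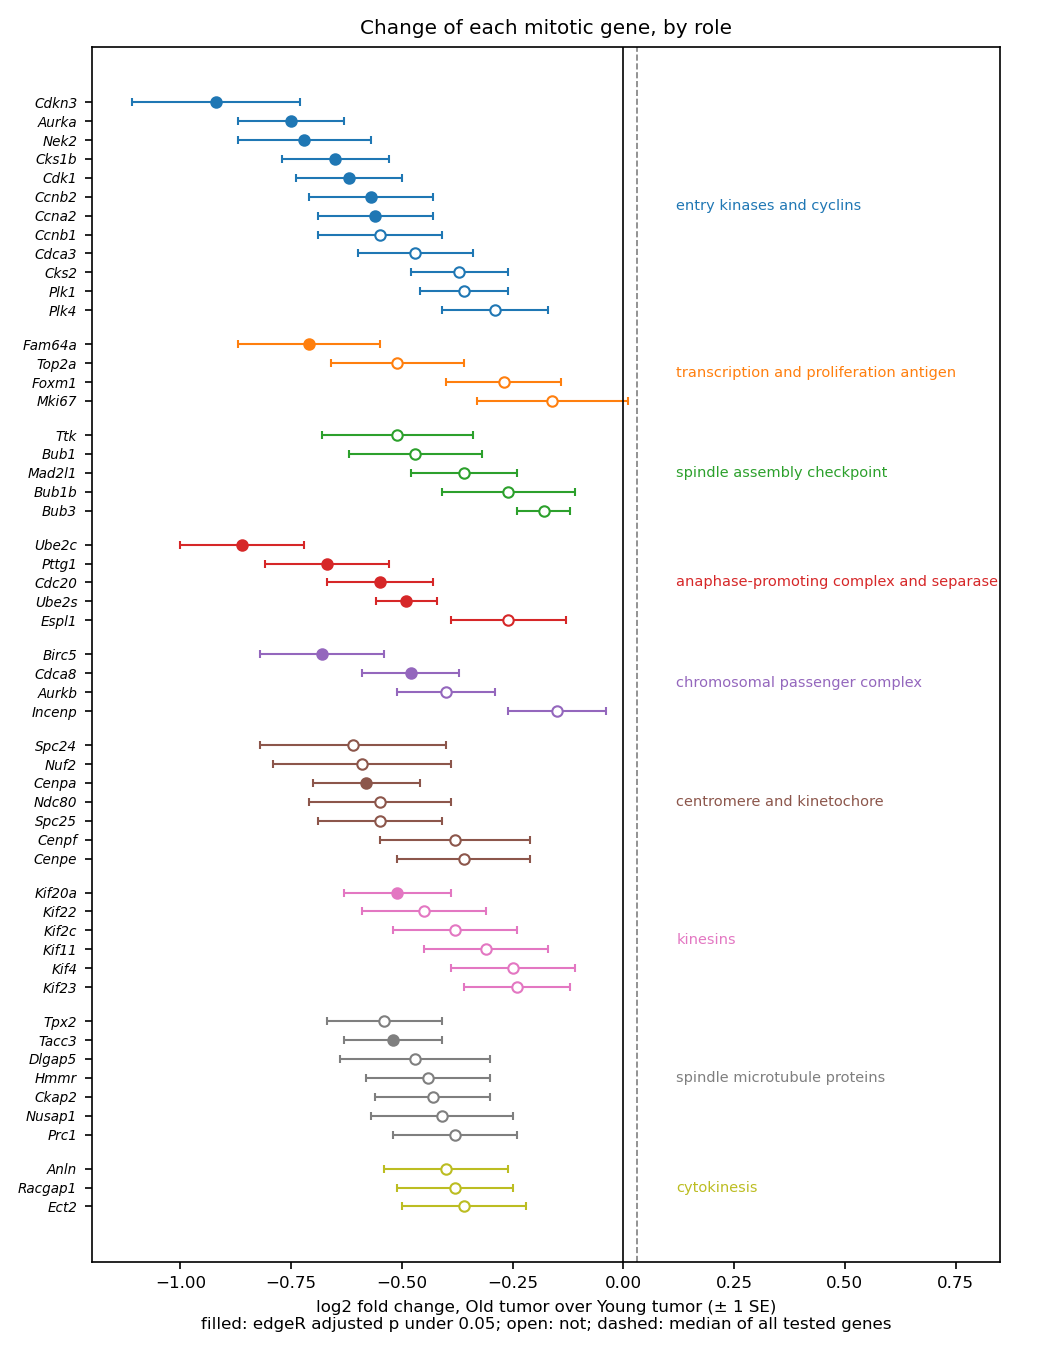
Log2 fold change, old over young, ± 1 SE for each of the 53 genes by role, filled where the edgeR adjusted p was under 0.05. All points lie left of 0, from -0.92 (Cdkn3) to -0.15 (Incenp), and the dashed line marks the median of all tested genes at 0.03.

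The levels of these genes spanned a wide range per length. In young tumors Ube2s was highest at 208 ± 35.2 TPM, followed by Cks1b at 187 ± 31.7 and Ube2c at 125 ± 20.8 TPM (SD, n = 6 each). Ube2s and Cks1b lay within their spread of each other. In old tumors Ube2s was at 169.8 ± 13.7, Cks1b at 131 ± 16.7 and Ube2c at 75.7 ± 13.2 TPM (SD, n = 6 each). The lowest level belonged to Espl1, at 4.09 ± 0.723 TPM for young and 3.75 ± 0.617 TPM for old libraries (mean ± SD, n = 6).

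These ratios were added after the data were seen, for 3 pairs of related genes listed with earlier results known, so their p-values are descriptive. Within each pair the log2 ratio of CPM in a library was compared between ages with an exact permutation test, two-sided, that runs through all 924 splits. Aurka to Aurkb, the centrosomal and the centromeric Aurora kinase, was 0.52 ± 0.17 among young and 0.18 ± 0.09 among old libraries (mean ± SD, n = 6), differing by -0.34 (exact permutation p = 0.00866, adjusted over the 3 pairs 0.026). Single values overlapped (0.22 to 0.72 and 0.10 to 0.31). On TPM that difference was -0.31 and did not pass (exact permutation, adjusted p = 0.10), nor did it without any of Young tumor 1, 2, 3, 5 or 6 or Old tumor 1, 2 or 6 (-0.30 to -0.35, exact permutation, adjusted p = 0.052). Cks1b to Cks2, close paralogs, differed by -0.27 (1.45 ± 0.26 in young and 1.18 ± 0.25 in old, SD, n = 6 each; exact permutation p = 0.102, adjusted 0.153). Ccnb2 to Ccnb1 differed by -0.04 (exact permutation p = 0.708, adjusted 0.708), within a spread of 0.16 to 0.18 (SD).

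Other genes, most of them of the mitotic machinery, were read from 8 lists of 119 genes outside the 53. Of these, 117 were in the table and tested. By edgeR 2 of the 117 fell and 0 rose, where 1.47% of all genes were called lower, and the median log2 fold change was -0.14. At an unadjusted p under 0.05, 37 were lower and 5 higher (10.4% and 10.7% of all genes). DESeq2 called 27 of the 117 in either direction, where it called 1439 of the 16013 genes tested. Fbxo5, the inhibitor that holds the anaphase-promoting complex before mitosis, fell (-0.47, SE 0.11, edgeR adjusted p = 0.049), and so did Kifc1, a minus-end kinesin that clusters spindle poles (-0.48, SE 0.11, edgeR adjusted p = 0.044). The 16 genes of the anaphase-promoting complex list, most of them constant subunits, summed to 1111 to 1237 CPM in young and 1097 to 1245 CPM in old libraries. Their median log2 fold change was -0.09, with 5 above 0, and Anapc13 had the next smallest p (-0.30, SE 0.0878). Of the 16, 5 were lower at an unadjusted p under 0.05 (Anapc7, Anapc11, Anapc13, Anapc16 and Fbxo5) and 0 higher. The difference between these genes and the 53 was not tested.

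The constitutive centromere network had a median of -0.26 over 13 genes, led by Cenph (-0.56, SE 0.14) and Cenpw (-0.76, SE 0.22), and the outer kinetochore and checkpoint recruiters one of -0.27 over 15, led by Pmf1 (-0.37, SE 0.10) and Ska1 (-0.91, SE 0.25). The list of other kinesins, not all of them mitotic motors, had a median of -0.28 over 9, where Kif14 (-0.44, SE 0.20) followed Kifc1. It included Kif3a (-0.09) and Kif5b (-0.03). Condensin and cohesin genes had a median of -0.10 over 20. Their smallest p belonged to Cdca5, sororin (-0.46, SE 0.13), and Ncapg, a condensin subunit (-0.50, SE 0.16). Centriole and augmin genes had a median of -0.09 over 16, with Cep55, a protein of abscission (-0.53, SE 0.13, edgeR adjusted p = 0.051), and Haus8 (-0.34, SE 0.11). The entry switch genes had a median of -0.13 over 12, with Arpp19 (-0.19, SE 0.0550) and Ccnf (-0.43, SE 0.13). The regulators of the DREAM and MuvB complexes had a median of -0.12 over 16, with Mybl2 (-0.48, SE 0.14) and E2f1 (-0.44, SE 0.13), both activators of cell cycle genes. Rbl2, which codes for the repressor p130, was at 0.37 (SE 0.12, edgeR adjusted p = 0.092) with all 6 old libraries above all young ones, as for 0.999% of all genes. It was named after its values were seen. In that list of 16 genes 12 fold changes were below 0 and 4 above, with 5 lower and 3 higher at an unadjusted p under 0.05. Apart from Fbxo5 and Kifc1, none of these named genes passed.

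Markers of the cell types that a tumor piece can hold varied between libraries too. The 10 epithelial markers, led by Krt8 and Krt18, summed to 5604 to 10093 CPM in young and 5289 to 8088 CPM in old libraries with 0 called (edgeR and a median log2 fold change of -0.20, 1 lower at an unadjusted p under 0.05). With the epithelial score as a covariate 21 of the 53 mitotic genes were called lower, as were 323 of all genes (2.02%, against 1.47% without it). The 10 T and natural killer cell markers, led by Cd8a and Trbc2, summed to 20.9 to 48.3 CPM in young and 7.80 to 34.1 CPM in old libraries. All 8 tested ones had fold changes below 0 (5 at an unadjusted p under 0.05). Old tumor 2 was the lowest here as in the mitotic sum. Young tumor 2 was the lowest young library here but the highest of all libraries in the mitotic sum. The 12 acinar markers, led by Cela1 and Amy2a5, summed to 12.9 to 68.9 and 12.9 to 19.9 CPM. All 3 tested acinar genes had fold changes below 0, with Amy2a5 at -2.63 (SE 1.22, edgeR adjusted p = 0.23), and Try4 was at 0 in every old library and at a median of 0 in young ones. Fibroblast markers, led by Col3a1 and Col1a1, summed to 1455 to 3588 and 1271 to 9674 CPM with all 10 fold changes above 0 (2 at an unadjusted p under 0.05), and endothelial markers, led by Cdh5 and Pecam1, to 114 to 162 and 102 to 405 CPM with all 8 fold changes above 0 (3 at an unadjusted p under 0.05), Old tumor 1 being highest in both. Macrophage markers (led by Lyz2 and C1qa, 974 to 1539 and 904 to 2225 CPM), neutrophil markers (led by Mmp9 and Csf3r, 38.0 to 192 and 38.9 to 114 CPM) and B and plasma cell markers (768 to 1037 and 784 to 966 CPM, nearly all Sdc1, which epithelium makes too, then Jchain) overlapped between ages. The part of T cells, fibroblasts, endothelium and myeloid cells in the mitotic differences was not tested.

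With the trend of counts on exon length removed from each library 11 of the 17 remained called, and no other member was. That fit called 0.601% of all genes lower, and the median of the 53 was -0.52. The 6 that missed were Cks1b, Ccna2, Ccnb2, Fam64a, Tacc3 and Cdc20 (edgeR adjusted p = 0.066, 0.057, 0.089, 0.057, 0.057 and 0.083). In that fit these 6 genes stood at log2 fold changes of -0.57, -0.59, -0.52, -0.71, -0.54 and -0.51, close to the reported ones. Deposited counts were exactly whole as written in all 12 libraries for 29 of the 53 genes and in none for 4, namely Ccna2, Cks2, Kif20a and Kif2c, so RSEM assigned part of their reads in fractions. Exons of 2 members overlap a gene on the same strand, Foxm1 with Tex52 and Gm44596, and Top2a with Gm23451. Counts of Foxm1 were not whole in 9 libraries and those of Top2a in 0. Exons of 13 members overlap a gene on the opposite strand, among them Ube2s with Rpl28, Ube2c with Tnnc2, Ccna2 with Exosc9, Kif20a with Cdc23 and Tacc3 with Tmem129. The libraries were made with a strand-marking kit, but the strand setting of the counting is not given in the sources used here, so reads of such partners may not have been kept apart.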

How the data were processed

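RNA of 12 tumor pieces was sequenced after poly(A) selection with a directional kit, per the labels' protocols. Per the submitters' processing notes, cutadapt 2.3, STAR 2.7.0d, RSEM 1.3.1 and mm10 were used. The authors deposited expected counts, exactly whole as written for 86.0% to 88.2% of entries in a library (rounded before testing), and TPM. No value column was left unmapped. The members and all lists were chosen with earlier results of these data known.

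edgeR 4.0.16 (R 4.3.3) ran on all 47643 genes with TMM, filterByExpr (16013 kept), the quasi-likelihood F test, two-sided, and Benjamini-Hochberg adjustment at 0.05. SE is the log2 fold change divided by the square root of F. CPM uses TMM-scaled library sizes. Precision rests on 6 libraries a group, at 17754645 to 24097599 counts each. Genes given in full are all that passed, in each role the largest and smallest change, and Racgap1. From a related list they are the 2 with the smallest p, and from a marker list the 2 most abundant. Cenps and Cenpx had no match. Exon lengths and coordinates came from GENCODE M21 (GRCm38), which held 47224 of the IDs. The length correction is a natural spline with 4 degrees of freedom in each library, used as an offset. Alternatives were other scalings, DESeq2 1.42.0, filters, limma 3.58.1 on log2(TPM + 1) and log2(TPM + 0.1), covariates, a replicate block and each library left out. Leaving out Old tumor 1 together with Old tumor 5, the ratios within gene pairs (scipy 1.17.1), the CHR window of 40 bases and the promoter of Mki67 were chosen after the data were seen. No protein sequences were used here. The fit was tested on simulated counts.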

Additional observations from a re-analysis of the deposited data

Results flagged for a closer look

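In 6 members Old tumor 2 stood apart from the other 5 old libraries, by a gap to the next library above 0.625 of the range of the group (Dixon's 95% limit for 6 samples). It held 34.0 CPM of Ccna2, with the next library at 51.0, 6.60 CPM of Nek2 (next 10.5) and 28.9 CPM of Mad2l1 (next 43.0). It also held 5.03 CPM of Ttk (next 7.84), 9.66 CPM of Ndc80 (next 13.0) and 26.7 CPM of Racgap1 (next 42.4). Of 108 groups of 6 values examined, these 6 were marked, all in Old tumor 2, and chance marks about 1 group in 20. Without Old tumor 2 the log2 fold changes of Ccna2 and Nek2 were -0.46 and -0.61 in place of -0.56 and -0.72. No cause was tested.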

How the results depend on the processing

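The direction of the members held under every alternative run (24 fits), except that Foxm1, Bub3 and Cenpf, none of them called by edgeR in the reported fit (Bub3 was by DESeq2), were at 0.08, 0.02 and 0.06 on log2(TPM + 1) and at 0.09, 0.02 and 0.07 on log2(TPM + 0.1) with limma. The median log2 fold change of the 53 stayed within -0.54 to -0.31. Calls moved far more. Of the 53 members, 35 were called by DESeq2, 8 on either TPM scale, 11 with the length trend removed, and 0 with the acinar score as covariate or with the replicate block (37 and 44 with an unadjusted p under 0.05). Leaving out each library gave 0 to 26. Among all genes tested 362 were called, against 1439 by DESeq2, 151 with no low-count filter, 111 with the length trend removed, 1 with the acinar score and 1 with the replicate block. It was 742 without the pair Old tumor 1 and Old tumor 5, a choice made after seeing the data, and 2 to 1106 with each library left out. On log2(TPM + 1) all genes tested had 291 higher and 48 lower calls, against 127 and 235, and 152 and 143 with total counts. Of the 117 related genes, 2 were called, against 1 with total counts, 27 by DESeq2, 0 with no low-count filter, 4 with the filter of 1 CPM in 6 libraries, 0 with the acinar score, 8 with the epithelial score, 1 with the length trend removed, 0 with the replicate block, 4 without the pair, and 0 to 15 with each library left out. The log2 ratio of Aurka to Aurkb was -0.34, -0.31 on TPM, and -0.40 to -0.30 with each library left out, while that of Ccnb2 to Ccnb1 was -0.04, and -0.08 to 0.03 with each library left out (0.00 without Young tumor 5 and 0.03 without Old tumor 5). Replicate numbers have no stated link between ages: same-numbered libraries correlated at -0.23 to 0.14 in their deviations from the group means, 2 of 6 matched best with their own number, and the median log2 fold change of the 53 was -0.48 with the block. Why the counts of calls moved was not tested. With 6 libraries a group the median SE of the members was 0.136 on the log2 scale, and the smallest change called among the 53 was -0.48 (Cdca8).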
